A study of Mus musculus with 11 samples.

Results

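A set of 6 genes that build or carry sialylated O-glycans and selectin ligands were followed in tumor-infiltrating mouse CD8 T cells: the sialyltransferases St3gal1, St3gal6 and St6gal1, the core 2 branching enzyme Gcnt1, the fucosyltransferase Fut7 and the glycoprotein scaffold Selplg. They were taken by name, through array rows that name exactly 1 gene, and make up 6 of 20259 genes named on the array. Each of the 6 has 1 such row. Transcript levels come from 11 microarrays, 1 per sample, of CD8 T cells from T cell receptor transgenic donors, sorted by the congenic surface marker Thy1.2 from tumors 5 days after transfer. All hosts carried NT2.5 mammary tumors and received cyclophosphamide at 100 mg/kg on day 8, a GM-CSF-secreting whole-cell vaccine on day 9 and the T cells on day 10. The groups differ in galectin-3, a lectin that recognises galactose on glycans, made from the gene Lgals3. They are written as T cell genotype over host genotype: wild-type cells in wild-type hosts (WT/WT, n = 4, the reference), wild-type cells in galectin-3 knockout hosts (WT/KO, n = 3) and knockout cells in knockout hosts (KO/KO, n = 4). The design text gives 4 replicates per group, and the labels used here give 3 WT/KO arrays. Knockout cells in wild-type hosts are not among the 3 groups, so the T cell genotype was compared in knockout hosts alone. Pooling of mice is not stated in the labels, so p-values reflect only how much these samples vary.

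Mucin-type O-glycans start with a sugar on serine or threonine, which the enzyme C1galt1 extends to the core 1 structure. There the path forks. St3gal1 caps core 1 with sialic acid, while Gcnt1 adds a branch and so makes core 2. The core 2 branch can be lengthened, sialylated by enzymes such as St3gal6 and fucosylated by Fut7, which gives the sialyl Lewis x group through which Selplg, also called PSGL-1, binds P-selectin and E-selectin. St6gal1 adds sialic acid in another linkage, mainly on N-glycans, and this cap is known to hinder galectin binding. In mouse T cells, loss of St3gal1 is known to deplete peripheral CD8 T cells, and activated CD8 T cells shift O-glycans towards core 2.

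The deposited values are log2 signals, and 15194 genes with a mean signal at or above 4.33 (the 25th percentile of named genes) were tested with limma. All 6 genes passed this filter. In each of the 3 comparisons 0 of 15194 genes (0%) had an adjusted p under 0.05, and so none of the 6 did. Unadjusted, 1136 genes (7.48%) had p under 0.05 between WT/KO and WT/WT, 1285 (8.46%) between KO/KO and WT/WT and 519 (3.42%) between KO/KO and WT/KO. Lgals3 itself was lower in every KO/KO array than in every array of wild-type cells, with differences of -0.87 (SE 0.13; limma adjusted p = 0.103) from WT/WT and -0.84 (SE 0.14; limma adjusted p = 0.661) from WT/KO. Its mean in KO/KO was still 7.43, against 8.31 in WT/WT and 8.27 in WT/KO. No label says whether its array row covers the deleted sequence, which limits these values as a check of the genotype. Of 14 markers of CD8 T cells, 12 were measured, and their mean log2 signal lay between 9.20 and 9.50 in all arrays. The range of values, taken as an array's slope on the mean of all arrays, was narrowest in WT/WT arrays 1 and 4 (0.956 and 0.934), and the other slopes were 0.989 to 1.04. In bulk samples, fewer cells of a type and less RNA per cell cannot be told apart.

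St3gal1, which caps core 1 with sialic acid, had the clearest pattern of the 6 genes. Its log2 signal was 7.43, 7.75, 7.73 and 8.05 in WT/WT arrays 1 to 4. In WT/KO arrays 1 to 3 it was 8.40, 8.45 and 8.42, and in KO/KO arrays 1 to 4 it was 8.27, 8.07, 8.09 and 8.39. All 7 arrays from knockout hosts were thus above all 4 from wild-type hosts, and the 3 WT/KO arrays were above the 4 KO/KO arrays. The gap between groups was 0.35 for WT/KO over WT/WT, but 0.016 for KO/KO over WT/WT and 0.0088 between KO/KO and WT/KO, both below the SD of either group.

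Group means of St3gal1 were 7.74 ± 0.25 (SD, n = 4) in WT/WT, 8.20 ± 0.15 (SD, n = 4) in KO/KO and 8.42 ± 0.023 (SD, n = 3) in WT/KO. For WT/KO against WT/WT, which asked what host galectin-3 changes in cells of 1 genotype, the log2 difference was 0.69 (SE 0.14, 95% interval 0.371 to 0.999), a 1.61-fold higher signal. Its rank by p was 10 of 15194 genes, yet the limma adjusted p was 0.592. For KO/KO against WT/WT, with galectin-3 lost from both compartments, the difference was 0.47 (SE 0.13, 95% interval 0.18 to 0.76; limma adjusted p = 0.420), or 1.38-fold. For KO/KO against WT/KO it was -0.22 (SE 0.14, 95% interval -0.53 to 0.095; limma adjusted p = 1), an interval that includes 0. The first 2 comparisons share the WT/WT arrays. Over all 3 groups the limma F test gave an adjusted p of 0.516, with 0 genes called (0%).

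Genes whose groups do not overlap are common in so small a design. Between WT/KO and WT/WT 8.89% of genes had no overlap in either direction, between KO/KO and WT/WT 5.02%, and between KO/KO and WT/KO 4.07%. In each comparison 1 of the 6 genes did, St3gal1 each time. Both knockout-host groups lay wholly above WT/WT for 130 of 15194 genes (0.856%). All 3 pairs of groups were separate, in any order, for 18 genes (0.118%). For 3 genes (0.0197%) they were separate in the order seen for St3gal1, WT/WT below KO/KO below WT/KO. Beside St3gal1 these were Hook1 and the lymphocyte receptor gene Slamf6, at 0.42 (SE 0.12) and 0.67 (SE 0.18) for WT/KO against WT/WT and at 0.18 (SE 0.11) and 0.36 (SE 0.17) for KO/KO against WT/WT, none past the test. These shares were counted after the St3gal1 values had been seen.

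**Figure D1:**
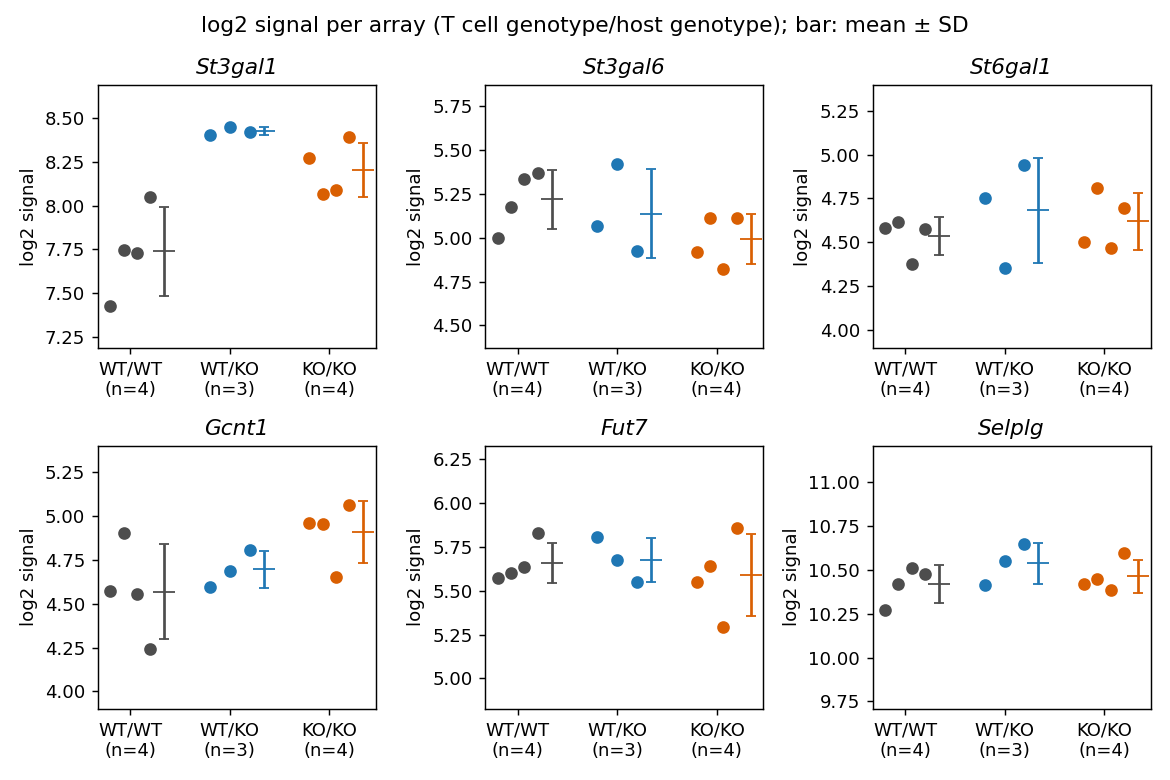
Log2 signal (y axis) of each of the 6 genes by group (x axis), with 1 point per array in order of replicate number and a bar for the mean ± SD; every panel spans the same log2 width. St3gal1 separates WT/WT (7.43 to 8.05) from both knockout-host groups (8.07 to 8.45), while the groups overlap for the other genes.

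Markers of monocytes and macrophages had higher means in the knockout-host groups too, none past the test. Of 17 such markers 14 were tested, and 12 of these 14 were above 0 in each comparison with WT/WT, with a median log2 difference of 0.51 in both. Their mean log2 signal was 6.17 to 6.29 over WT/WT arrays, 6.50 to 7.01 over WT/KO arrays and 6.45 to 6.80 over KO/KO arrays. The receptor Csf1r, a defining marker of that lineage, was 5.95 on average in WT/WT and 6.65 in WT/KO, and Siglec1, a sialic acid receptor of macrophages, was 5.18 and 5.13. The marker score, the mean of the centred log2 signals, was 0.031, -0.017 and 0.49 in WT/KO arrays 1 to 3, where St3gal1 read 8.40, 8.45 and 8.42. In KO/KO arrays 1 to 4 it was 0.17, 0.28, 0.26 and -0.071, where St3gal1 read 8.27, 8.07, 8.09 and 8.39. All 4 WT/WT arrays scored lower, from -0.34 to -0.23. With the marker score as a covariate the St3gal1 difference was 0.83 for WT/KO (limma adjusted p = 0.95) and 0.61 for KO/KO against WT/WT, neither past the test. As no WT/WT score overlaps a knockout-host score, score and host genotype cannot be told apart in this fit. Without WT/WT arrays 1 and 4 the St3gal1 difference was 0.69 and 0.47. Neutrophil markers differed among themselves (8 of 11 tested). Their medians against WT/WT were -0.090 in WT/KO and -0.016 in KO/KO. The calprotectin genes S100a8 and S100a9 and the receptor gene Csf3r were at 2.72, 1.10 and 0.67 for KO/KO against WT/WT, each without overlap. For WT/KO they were at 1.19, 0.073 and 0.46. The other 5, Mpo, Elane, Camp, Ltf and Cxcr2, were below 0 in both comparisons with WT/WT. Ltf was lower without overlap in both, at -0.24 for WT/KO and -0.17 for KO/KO. Elane was lower without overlap in WT/KO, at -0.31. For KO/KO against WT/KO all 8 were above 0, and the neutrophil score averaged -0.21 in WT/WT, -0.11 in WT/KO and 0.29 in KO/KO. Markers of NK cells had medians of 0.28 and 0.62 against WT/WT (4 of 6 tested). Among these, Tyrobp at 1.02 and 0.94 and Fcer1g at 0.12 and 0.43 are expressed by macrophages as well. The NK receptor gene Klre1 was at 0.44 and 0.81, and its KO/KO arrays lay wholly above WT/WT. Ncr1, also an NK receptor gene, was at 0.12 and 0.21 with overlapping groups. Medians were -0.15 and -0.081 for B cell markers (6 of 8 tested) and -0.11 and -0.20 for tumor epithelium (9 of 10 tested). Their part in the St3gal1 difference was not tested.

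Of all genes tested, 0.856% had both knockout-host groups wholly above WT/WT. C1galt1, which makes the core 1 substrate that St3gal1 caps, was the only enzyme of the related lists among them. It read 7.10, 7.41, 7.65 and 7.14 in WT/WT arrays 1 to 4, 7.92, 7.94 and 7.66 in the WT/KO arrays, and 8.12, 8.20, 7.70 and 7.89 in the KO/KO arrays. Every array from a knockout host was above every array from a wild-type host, with gaps of 0.014 and 0.052, and WT/KO and KO/KO overlapped. The log2 difference was 0.52 (SE 0.16; limma adjusted p = 0.637) for WT/KO and 0.65 (SE 0.15; limma adjusted p = 0.386) for KO/KO against WT/WT, and 0.14 (SE 0.16; limma adjusted p = 1) between KO/KO and WT/KO. Without WT/WT arrays 1 and 4, which have its lowest values, the differences were 0.31 and 0.45 against WT/WT. Its chaperone C1galt1c1, needed to fold the enzyme, was at 0.26 (SE 0.17) for WT/KO and at -0.0031 (SE 0.15) for KO/KO against WT/WT, neither past the test.

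**Figure D2:**
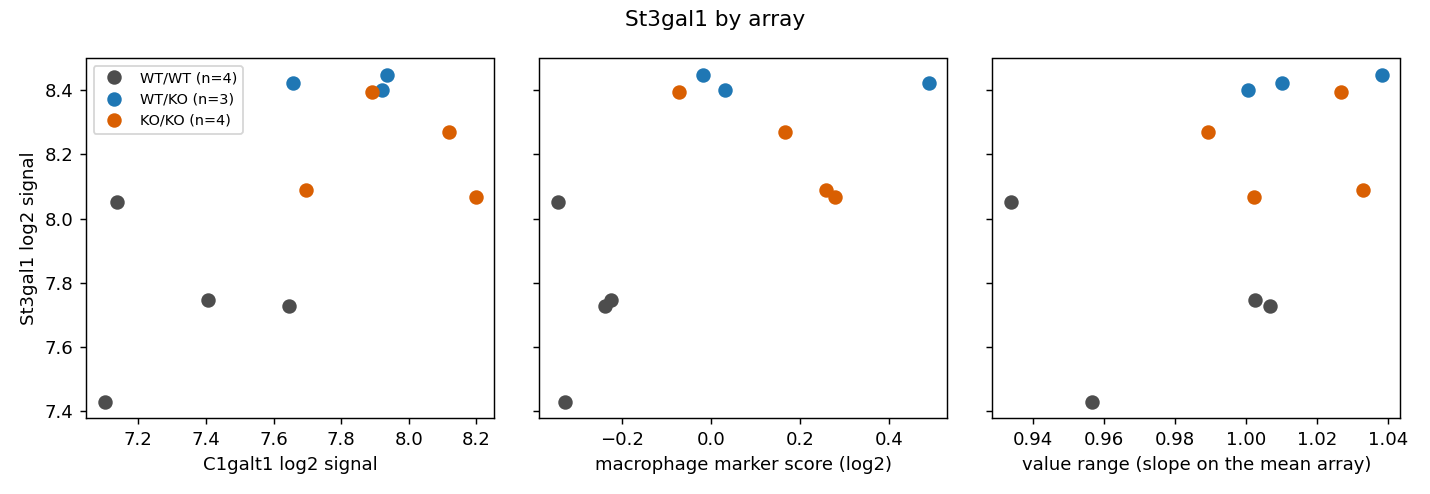
St3gal1 log2 signal (y axis) of each array against the C1galt1 log2 signal, the macrophage marker score (mean of 14 centred log2 signals) and the value range of the array (slope on the mean of all arrays), coloured by group. WT/WT arrays hold the lowest St3gal1 and the lowest marker scores, and WT/WT arrays 1 and 4 the smallest slopes (0.956 and 0.934).

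Gcnt1, the enzyme that starts the core 2 branch and competes with St3gal1 for core 1, has several start sites in RefSeq. The 250 bases before each of its 3 listed starts (build GRCm38.p6, minus strand, 5′ to 3′, capitals marking CG pairs) are shown because the starts differ in CG content. The position of the array row relative to them was not examined.
Gcnt1 start 1, chr19:17372845-17373094: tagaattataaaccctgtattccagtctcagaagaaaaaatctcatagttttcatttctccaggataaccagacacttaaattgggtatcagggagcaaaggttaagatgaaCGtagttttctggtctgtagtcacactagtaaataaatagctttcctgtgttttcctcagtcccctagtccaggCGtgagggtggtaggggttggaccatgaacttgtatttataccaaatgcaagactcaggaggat
Gcnt1 start 2, chr19:17356668-17356917: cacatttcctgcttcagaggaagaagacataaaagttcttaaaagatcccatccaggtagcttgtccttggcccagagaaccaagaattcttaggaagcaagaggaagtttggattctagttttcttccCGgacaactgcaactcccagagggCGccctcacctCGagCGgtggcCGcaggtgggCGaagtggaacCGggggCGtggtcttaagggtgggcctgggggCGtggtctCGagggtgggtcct
Gcnt1 start 3, chr19:17339506-17339755: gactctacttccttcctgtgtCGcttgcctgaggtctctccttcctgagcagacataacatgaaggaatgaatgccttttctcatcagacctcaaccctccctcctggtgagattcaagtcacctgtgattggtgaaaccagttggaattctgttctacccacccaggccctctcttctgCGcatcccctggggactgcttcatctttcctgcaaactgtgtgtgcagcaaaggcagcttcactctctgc
Start 2 has 10 CG pairs and a GC content of 55.6%, against 2 and 40.4% at start 1 and 2 and 51.6% at start 3. RefSeq windows of 300 bases (250 before and 50 after a start) were available for 4 of the 6 genes, Gcnt1, Fut7, St3gal6 and St6gal1, as 10 windows. They were searched on both strands for GGTGTGA (the T-box motif of factors such as T-bet), TTCNNNGAA (STAT factors) and GAAAGTG (Blimp-1). Matches of different motifs could share letters, as GAA ends one and starts another. None of the 10 windows holds any of the 3, and over 32851 windows of mouse genes 3.98%, 8.30% and 4.81% do.

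Gcnt1 read 4.57, 4.90, 4.56 and 4.24 in WT/WT arrays 1 to 4, 4.59, 4.69 and 4.81 in WT/KO arrays 1 to 3, and 4.96, 4.95, 4.65 and 5.06 in KO/KO arrays 1 to 4. Of the 4 KO/KO arrays, 3 were above every other array, and the fourth, array 3, lay among them. The order of means was WT/WT (4.57 ± 0.27, SD, n = 4), WT/KO (4.70 ± 0.11, SD, n = 3) and KO/KO (4.91 ± 0.18, SD, n = 4), and neighbours in it overlapped. KO/KO exceeded WT/WT by 0.34 (SE 0.14, 95% interval 0.026 to 0.65; limma adjusted p = 0.572), or 1.27-fold, and WT/KO by 0.21 (SE 0.16, 95% interval -0.13 to 0.55; limma adjusted p = 1). WT/KO exceeded WT/WT by 0.13 (SE 0.16, 95% interval -0.21 to 0.47; limma adjusted p = 0.791). Gcnt1 was the only other of the 6 with an unadjusted p under 0.05, in the comparison of KO/KO with WT/WT. There 2 of the 6 had one, and so did 1285 of 15194 genes (8.46%). Its mean signal of 4.73 is 0.39 above the filter value. Without WT/WT arrays 1 and 4 the difference between KO/KO and WT/WT was 0.18.

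Selplg, the scaffold that carries these glycans to the selectins, held the narrowest range. It read 10.27, 10.42, 10.51 and 10.48 in WT/WT arrays 1 to 4, 10.41, 10.55 and 10.65 in WT/KO arrays and 10.42, 10.45, 10.39 and 10.60 in KO/KO arrays. All 11 arrays lay within 0.38, and the groups overlapped. Its SD within groups was 0.11, and 94.7% of genes tested had a larger one. The spread covers the order of the group means, which were WT/WT 10.42 ± 0.11 (SD, n = 4), KO/KO 10.46 ± 0.093 (SD, n = 4) and WT/KO 10.54 ± 0.12 (SD, n = 3). The 95% intervals of the log2 difference from WT/WT were -0.12 to 0.36 for WT/KO (limma adjusted p = 0.748) and -0.18 to 0.27 for KO/KO (limma adjusted p = 0.897), so changes beyond about 1.28-fold lie outside both intervals. KO/KO differed from WT/KO by -0.074 (SE 0.11; limma adjusted p = 1).

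Fut7, which adds the fucose of sialyl Lewis x, read 5.58, 5.60, 5.64 and 5.83 in WT/WT arrays 1 to 4. It read 5.81, 5.67 and 5.55 in WT/KO arrays 1 to 3 and 5.55, 5.64, 5.30 and 5.86 in KO/KO arrays 1 to 4. The KO/KO group held both the lowest and the highest value of all 11 arrays. Means were 5.59 ± 0.23 (SD, n = 4) in KO/KO, 5.66 ± 0.11 (SD, n = 4) in WT/WT and 5.68 ± 0.13 (SD, n = 3) in WT/KO, and neighbours in this order did not differ beyond their spread. The log2 difference was 0.016 (SE 0.14, 95% interval -0.29 to 0.32; limma adjusted p = 0.974) for WT/KO and -0.073 (SE 0.13, 95% interval -0.35 to 0.21; limma adjusted p = 0.855) for KO/KO against WT/WT. Between KO/KO and WT/KO it was -0.089 (SE 0.14, 95% interval -0.39 to 0.21; limma adjusted p = 1).

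St3gal6, which can sialylate the lengthened core 2 branch, read 5.00, 5.17, 5.34 and 5.37 in WT/WT arrays 1 to 4, 5.07, 5.42 and 4.93 in WT/KO arrays and 4.92, 5.11, 4.82 and 5.11 in KO/KO arrays. Of the KO/KO arrays 2 were below all WT/WT arrays, and the others overlapped them. Means were 5.22 ± 0.17 (SD, n = 4) in WT/WT, 5.14 ± 0.25 (SD, n = 3) in WT/KO and 4.99 ± 0.14 (SD, n = 4) in KO/KO, and neighbours in this order overlapped. KO/KO differed from WT/WT by -0.23 (SE 0.13, 95% interval -0.52 to 0.066; limma adjusted p = 0.633) and from WT/KO by -0.15 (SE 0.15; limma adjusted p = 1), and WT/KO from WT/WT by -0.082 (SE 0.15; limma adjusted p = 0.862).

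St6gal1, the enzyme of the cap that hinders galectin binding, was the dimmest, with a mean of 4.61, only 0.27 above the filter value. It read 4.58, 4.61, 4.37 and 4.57 in WT/WT arrays 1 to 4, 4.75, 4.35 and 4.94 in WT/KO arrays and 4.50, 4.81, 4.47 and 4.69 in KO/KO arrays. WT/KO spanned the lowest and the highest of all 11 values. Means were 4.53 ± 0.11 (SD, n = 4) in WT/WT, 4.62 ± 0.16 (SD, n = 4) in KO/KO and 4.68 ± 0.30 (SD, n = 3) in WT/KO, again within their spread. The difference from WT/WT was 0.15 (SE 0.15, 95% interval -0.18 to 0.47; limma adjusted p = 0.764) for WT/KO and 0.084 (SE 0.14, 95% interval -0.22 to 0.38; limma adjusted p = 0.845) for KO/KO, and KO/KO differed from WT/KO by -0.064 (SE 0.15; limma adjusted p = 1).

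**Figure D3:**
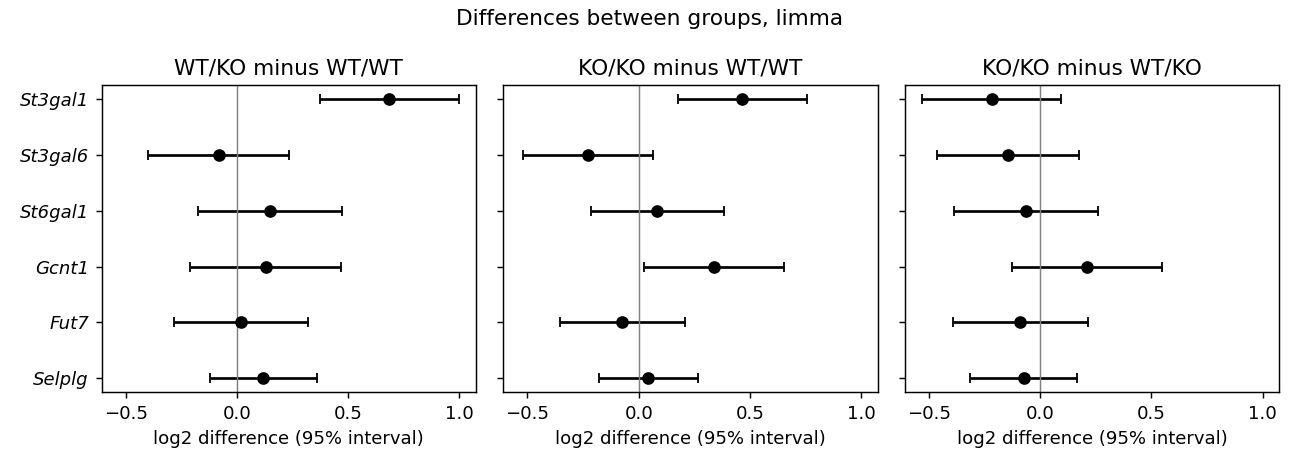
Log2 difference (x axis, point) with its 95% interval (bar) for each of the 6 genes (y axis) in the 3 comparisons of groups. The intervals of St3gal1 in both comparisons with WT/WT (0.371 to 0.999 and 0.18 to 0.76) and of Gcnt1 for KO/KO minus WT/WT (0.026 to 0.65) do not reach 0 before adjustment over genes.

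As a group the 6 genes had a median log2 difference of 0.12 for WT/KO against WT/WT, with 5 above 0, where the median of all genes tested was -0.025. For KO/KO against WT/WT their median was 0.064, with 4 above 0 (all genes -0.017), and for KO/KO against WT/KO it was -0.082, with 1 above 0 (all genes 0.011). They did not vary as a block. Across the 11 arrays their 15 pairwise Pearson correlations ran from -0.40, between St3gal6 and St6gal1, to 0.66, between St3gal1 and Selplg. After the group means were subtracted the pair of St3gal1 and Selplg was at 0.65, St3gal1 and Fut7 at 0.60 and St3gal6 and Fut7 at 0.59. These are descriptions over 11 arrays that share each array's range and makeup.

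The tested genes whose signal over all 11 arrays was most like that of St3gal1 were Polr1b, a subunit of RNA polymerase I (Pearson r = 0.915), Il15ra, the receptor chain that presents interleukin 15 (r = 0.914), and Vipas39 (r = 0.893). Il15ra differed by 0.57 (SE 0.13; limma adjusted p = 0.592) for WT/KO and by 0.37 (SE 0.12; limma adjusted p = 0.471) for KO/KO against WT/WT. For Gcnt1 the nearest were Vav1, a signalling protein of the T cell receptor (r = 0.903), Ccl27a (r = 0.903) and Bcap31 (r = 0.894). For Selplg they were Rbm17 (r = 0.977), Atp23 (r = 0.903) and Drosha (r = 0.877), for Fut7 Lppos (r = 0.912), Isl2 (r = 0.909) and Hes6 (r = 0.905), for St3gal6 Tmem260 (r = 0.913), Pnrc1 (r = 0.898) and Gemin4 (r = 0.869), and for St6gal1 Btd (r = 0.895), 1700064M15Rik (r = 0.878) and Csrp2 (r = 0.869). These are the highest correlations among 15194 genes over 11 arrays, and no test was made of them.

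Around these genes, 94 gene symbols in 6 lists were looked up, older names of some genes among them, and 80 genes were tested, with 0 called in any comparison. Other sialyltransferases had medians of 0.035, -0.029 and 0.022 in the comparisons of WT/KO with WT/WT, KO/KO with WT/WT and KO/KO with WT/KO (15 of 17 tested). In that list St3gal5, which makes the ganglioside GM3, differed by 1.56 (SE 0.72) and 1.73 (SE 0.67) in the comparisons with WT/WT, but WT/WT itself spread from 2.98 to 6.76. St8sia4, which makes polysialic acid, was lower in all 4 KO/KO arrays (5.63 to 5.93) than in all 3 WT/KO arrays (6.15 to 6.59), a difference of -0.58 (SE 0.16; limma adjusted p = 1). St6galnac5 was lower in every WT/KO array than in every other array, with a difference of -0.33 (SE 0.12; limma adjusted p = 0.654) from WT/WT, and its mean of 4.42 in WT/KO lies near the filter value. St3gal4, which shares the role of St3gal6 on selectin ligands, was at 0.035 (SE 0.12) and -0.082 (SE 0.11) against WT/WT.

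Genes of sialic acid supply and removal had medians of -0.0066, 0.010 and 0.070 (10 of 10 tested). Nanp, a phosphatase on the route to sialic acid, had lower means in the knockout-host groups, with differences from WT/WT of -0.83 (SE 0.26; limma adjusted p = 0.637) in WT/KO and -0.88 (SE 0.24; limma adjusted p = 0.409) in KO/KO. WT/WT arrays 1 to 3 read 7.09, 7.21 and 7.49, and array 4, at 6.44, lay among the knockout-host arrays (5.74 to 6.64). Gne, the enzyme that starts sialic acid synthesis, was at -0.28 (SE 0.13) and -0.14 (SE 0.12). Nans, the next synthase, was at 0.13 (SE 0.23) and 0.45 (SE 0.21). The estimates on this route differed in sign, but the 95% intervals of Gne and Nans include 0 in both comparisons with WT/WT.

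Core enzymes of mucin-type O-glycans had medians of 0.019, -0.013 and -0.037 (16 of 16 tested). C1galt1 had the highest difference of the list in both comparisons with WT/WT, and between KO/KO and WT/KO it was at 0.14, below Galnt3 at 0.23. Galnt1, which attaches the first sugar, was at 0.27 (SE 0.12) and 0.23 (SE 0.11) against WT/WT. Enzymes of Lewis-type capping and fucose supply had medians of -0.097, -0.043 and -0.018 (13 tested of 21 symbols, with older names of Gfus and Fcsk among them), with Fut8, the core fucosyltransferase of N-glycans, at 0.21 (SE 0.12) and 0.14 (SE 0.11). B4galt1, which lengthens the branch, was at -0.37 (SE 0.21) between KO/KO and WT/KO.

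Selectins, other selectin ligands and sulfation enzymes had medians of -0.024, -0.024 and 0.033 (14 of 17 tested). Glg1, an E-selectin ligand in mouse, was at 0.19 (SE 0.096) and 0.23 (SE 0.089) against WT/WT, neither past the test. Glg1 and C1galt1 were the only 2 of the 80 genes with both knockout-host groups wholly above WT/WT. Over all genes tested, 130 of 15194 (0.856%) had this pattern. The mucin Spn, known as CD43 and also a carrier of core 2 glycans, was at 0.23 (SE 0.14) and 0.16 (SE 0.13), and Cd44 at 0.30 (SE 0.20) and 0.28 (SE 0.19). Tpst2, which sulfates tyrosines of Selplg, was at 0.0052 (SE 0.15) and 0.16 (SE 0.14). Podxl2, of the same list, was at -0.30 (SE 0.13) and -0.26 (SE 0.12), with every WT/KO array below every WT/WT array. Of the 14 genes, 7 and 8 were below 0 in these 2 comparisons.

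Regulators linked to selectin ligand genes in T cells had medians of 0.040, 0.11 and 0.064 (12 of 13 tested). Tbx21, the gene of T-bet, which promotes selectin ligand synthesis in T cells, was at 0.11 (SE 0.13) and 0.21 (SE 0.12) against WT/WT. Prdm1, the gene of Blimp-1, was at 0.39 (SE 0.15; limma adjusted p = 0.654) and 0.40 (SE 0.14; limma adjusted p = 0.482), with the 3 WT/KO arrays above all WT/WT arrays. Klf2, a quiescence factor, and Il12rb1, a receptor chain for interleukin 12, differed between KO/KO and WT/KO by -0.50 (SE 0.16) and 0.59 (SE 0.21), each at a limma adjusted p of 1.

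**Figure D4:**
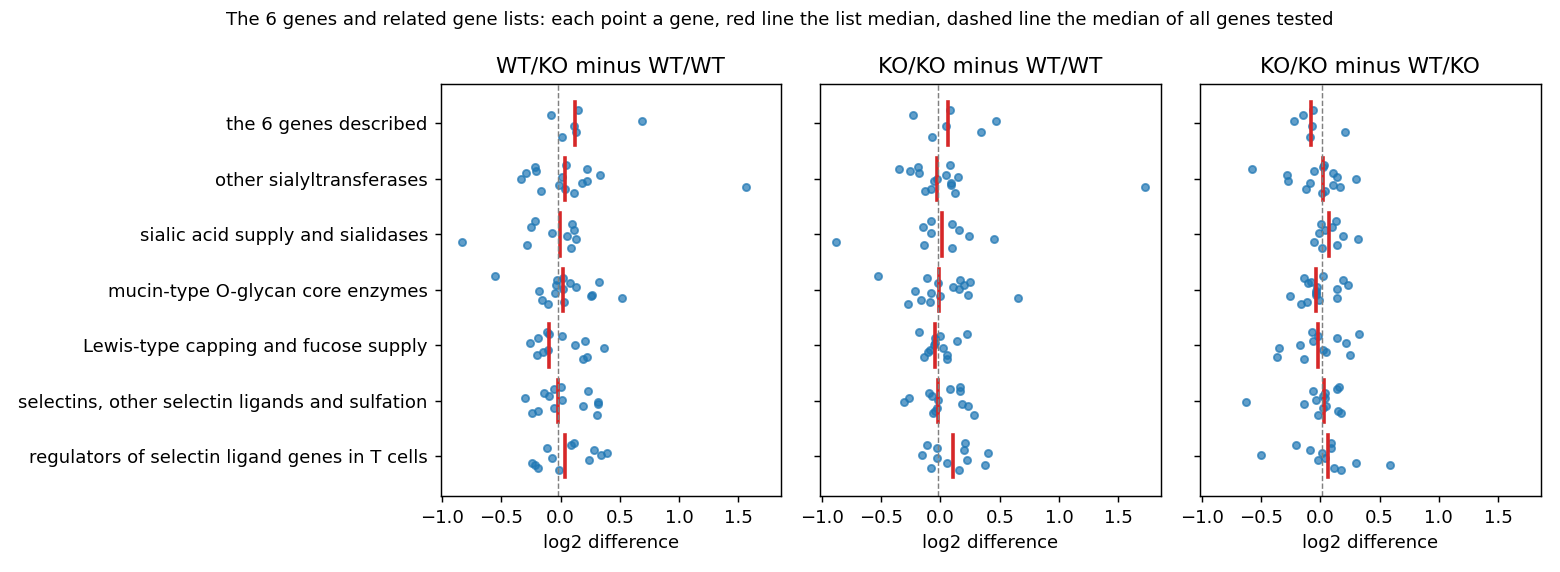
Log2 difference (x axis) of each tested gene (points) in the 6 genes described and 6 related lists (y axis) for the 3 comparisons, with the list median in red and the median of all genes tested as a dashed line. List medians stay between -0.097 and 0.12, and in WT/KO minus WT/WT the points farthest from 0 are St3gal5 at 1.56, Nanp at -0.83, St3gal1 at 0.69, Gcnt4 at -0.55 and C1galt1 at 0.52.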

How the data were processed

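RNA from sorted cells was amplified (Ovation Pico WTA) before hybridisation, per the labels' protocols, a step that may add noise. The authors deposited log2 signals, 115830 rows for 11 arrays, from 1.27 to 14.4. RMA, Partek and build mm9 are named per the submitters' processing notes, without versions. That the scale is log2 follows from the values.

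Names came from the platform's annotation: 25539 name 1 gene, 2300 several, and 87991 are unnamed here. The row of highest mean stood for a gene. Genes below the 25th percentile (4.33) were left out, and 15194 were tested with limma (version 3.58.1, R 4.3.3) on 3 group means in all 11 arrays, with Benjamini-Hochberg adjustment over all genes tested and a threshold of 0.05. The procedure was tested on simulated data.

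The 6 genes, the lists and the tests were chosen with earlier results of these data known. Named beyond the 6 were Lgals3, some of the 2 genes of lowest p per related list and comparison, some leading markers, and the 3 genes of highest correlation. Other genes picked by these rules are not named. C1galt1c1, St3gal4, Hook1, Slamf6, Galnt3, Gcnt4, S100a9, Csf3r, Mpo, Elane, Camp, Ltf, Cxcr2, Ncr1, Tyrobp, Fcer1g, Spn, Cd44, Tpst2, Tbx21, Csf1r and Siglec1 were named after values were seen. Alternatives covered normalization, filter, rows, samples, covariates, variance models and arrays left out. Promoter windows are from RefSeq (GRCm38.p6), and no coordinates were joined to the array.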

Additional observations from a re-analysis of the deposited data

Results flagged for a closer look

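St6gal1 in WT/WT array 3, at a log2 signal of 4.37, lay apart from the other 3 WT/WT arrays (4.57, 4.58 and 4.61), by a gap of 0.832 of the group's range. This was 1 of 12 groups examined, and chance marks about 1 in 20.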

How the results depend on the processing

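Under 24 alternatives per comparison, 0 of 423 values of the 6 genes passed the threshold, and 404 kept their sign. Many of these signs could not change, because the setting leaves the difference itself as it is. Such settings are other filters, the mean of a gene's rows, a fit of only the groups compared, a variance trend, and arrays left out of the group not compared. As the St3gal1 groups do not overlap, leaving out a single array could not change its sign either. Over all settings St3gal1 ran from 0.57 to 0.83 for WT/KO against WT/WT and from 0.36 to 0.61 for KO/KO against WT/WT. For KO/KO against WT/KO it ran from -0.30 to -0.17. The lowest limma adjusted p of St3gal1 in any comparison was 0.263, for KO/KO against WT/WT after median centring. The same settings, applied to C1galt1 and Glg1 after their values were seen, left their signs as they were.

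The other 19 values changed sign. With the macrophage score as a covariate, KO/KO minus WT/WT became 0.20 for Fut7, 0.023 for St3gal6 and -0.13 for St6gal1, and WT/KO minus WT/WT became 0.17 for St3gal6 and -0.067 for St6gal1. Without the 2 arrays of narrowest range, WT/KO minus WT/WT was -0.033 for Gcnt1 and KO/KO minus WT/WT was -0.00188 for Selplg; with the value range as a covariate the former was -0.00163. After cyclic loess, WT/KO minus WT/WT was 0.00291 for St3gal6 and KO/KO minus WT/WT was -0.027 for Selplg. With each array left out in turn, Fut7 ran from -0.048 to 0.079, from -0.16 to 0.024 and from -0.18 to 0.0080 in the comparisons of WT/KO with WT/WT, KO/KO with WT/WT and KO/KO with WT/KO. Selplg ran from -0.0066 to 0.074 for KO/KO against WT/WT, St3gal6 from -0.22 to 0.023 for WT/KO against WT/WT, and St6gal1 from -0.23 to 0.065 for KO/KO against WT/KO. The cause was not tested.

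Over all genes, KO/KO against WT/WT went from 0 called to 2 with quantile normalization, median centring, a filter at the 50th percentile or the mean of a gene's rows, and ran from 0 to 1 with arrays left out (1 without KO/KO array 4), as did the F test. With the replicate block it called 3, none of them among the 6 genes, and St3gal1 was at 0.77 and 0.47 against WT/WT. Deviations of same-numbered arrays had correlations of -0.11 to 0.12 over 10 pairs, and those of other arrays -0.24 to 0.18 over 30 pairs. So few pairs cannot settle whether the numbers pair the samples. At the 50th percentile filter Gcnt1, St3gal6 and St6gal1 drop out. Using other rows of a gene was not run, since each of the 6 has 1. Signals of St6gal1 and Gcnt1 near the filter value, and 3 or 4 arrays a group, limit what could be seen.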
